A study of Homo sapiens with 23 samples.

Results

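The long arm and the centromere-near short arm of human chromosome 19 carry several dense clusters of zinc finger genes. Chromatin over 5 of these clusters was described from peak lists of the lung cancer cell line NCI-H23. The clusters were taken as fixed windows of chromosome 19 in build hg19. Window A runs from 19.7 to 24.4 Mb, window B from 36.5 to 38.4 Mb, window C from 44.3 to 45.0 Mb, window D from 52.3 to 54.0 Mb and window E from 56.1 to 59.1 Mb. A peak belonged to a window when its summit, the position of its highest signal, lay inside it. Of 2889028 peaks in all lists, 21877 (0.757%) belonged to the 5 windows. They were 18.8% of the 116525 peaks on chromosome 19. The windows span 12 Mb, or 21.5% of the chromosome length compared. H3K9me3 alone gave 12158 of the members (55.6%).

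The study applied chromatin immunoprecipitation followed by sequencing (ChIP-seq) to NCI-H23, an established line of non-small cell lung cancer. Its 22 immunoprecipitated libraries cover BRD2 and 10 histone marks, with 2 libraries each. BRD2 belongs to the BET proteins, whose bromodomains bind acetylated lysines. The 5 acetylation marks are H4K5acK8ac (an antibody raised to the doubly acetylated H4 tail), H4K5ac, H4K8ac, H4K12ac and H3K27ac. The 5 methylation marks are H3K4me1, H3K4me3, H3K36me3, H3K9me3 and H3K27me3. All libraries come from 1 cell line without an untransformed lung control, and the 1 input library was not analysed here. The treatment text names the BET inhibitor JQ1 and its solvent DMSO, but no label ties either to a library, so no treatment was compared. The labels do not say whether the 2 libraries of a target come from separate cultures, so the spread between them may be technical.

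As background, most genes in these clusters encode KRAB zinc finger proteins, a family that expanded by tandem duplication and whose members bind DNA through arrays of C2H2 fingers. Their KRAB domain recruits TRIM28 (KAP1) and with it the methyltransferase SETDB1, which deposits H3K9me3, the mark of repressed heterochromatin. H3K36me3 is laid down by SETD2 behind elongating RNA polymerase II, and the bodies of KRAB zinc finger genes are known as places where both marks occur. H3K4me3 marks active promoters, H3K4me1 promoter flanks and enhancers, H3K27me3 Polycomb-repressed chromatin, and acetylation of H3 and H4 active promoters and enhancers.

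The lists held between 21580 and 277462 peaks. They carry no read numbers, so depth is unknown and a deeper library may have given a longer list; each library was therefore compared with itself, window against the rest of chromosome 19. The rest spans 43.92 Mb and holds 94648 peaks, after the widest stretch without any peak (chr19:24603430-27731809) was left out. A fold enrichment is the authors' value of a peak over local background and is compared within a list. Regions found in both libraries are the exception, with the mean or the lower value of the 2 lists of a target. Windows and rest are measured in the same 2 libraries of a target, too few for a useful exact test. Differences between windows and rest are therefore given with the SD between libraries and untested. In a gene table of assembly GRCh38.p14, 264 of 1451 protein-coding genes on chromosome 19 have zinc finger symbols (ZNF, ZFP, ZSCAN, ZIM or ZKSCAN), of 568 in the genome, and 240 of the 264 stand next to another. That table was used for names and neighbours only, and no gene was placed on a region.

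H3K9me3 was the mark most enriched in the clusters over the rest of the chromosome. The first library had 553 H3K9me3 peaks per Mb in the clusters and 98.2 per Mb in the rest, and the second had 460 and 98.9. The ratios were 5.63 and 4.65, with a mean of 5.14 ± 0.695 (SD, n = 2 libraries). H3K9me3 peaks covered 48.7% and 61.9% of the clusters' bases, against 7.74% and 10.1% of the rest. Both libraries thus put the clusters far above the rest, by more than the libraries differed from each other.

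The peaks were also wider and stronger in the clusters. Their median width was 569 and 771 bp, against 494 and 552 bp in the rest. Their median fold enrichment was 4.30 and 4.37, against 3.86 and 3.45. A −log10 q of at least 5 was reached by 46.1% and 65.5% of H3K9me3 peaks in the clusters and by 34.0% and 43.1% in the rest. Of the 10000 strongest H3K9me3 peaks of the genome in each library, 637 and 629 lay in the 12 Mb of the clusters, and 377 and 376 in the rest of chromosome 19. Of all H3K9me3 peaks, 3.21% and 2.31% lay in the clusters and 2.085% and 1.82% in the rest. The counts of strongest peaks therefore reflect density as well as strength.

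All 5 windows were rich in H3K9me3. Mean density was highest in window A (586 peaks per Mb) and lowest in window E (354 peaks per Mb), with windows B, C and D between 518 and 535. By covered bases the order was another: window D led with 64.8% and 78.7% in the 2 libraries, and window E was again lowest with 43.6% and 52.3%. Windows A, B and C lay close together, between 46.5% and 47.5% in the first library and between 58.6% and 62.8% in the second. Their differences were smaller than the gap between the libraries.

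**Figure D1:**
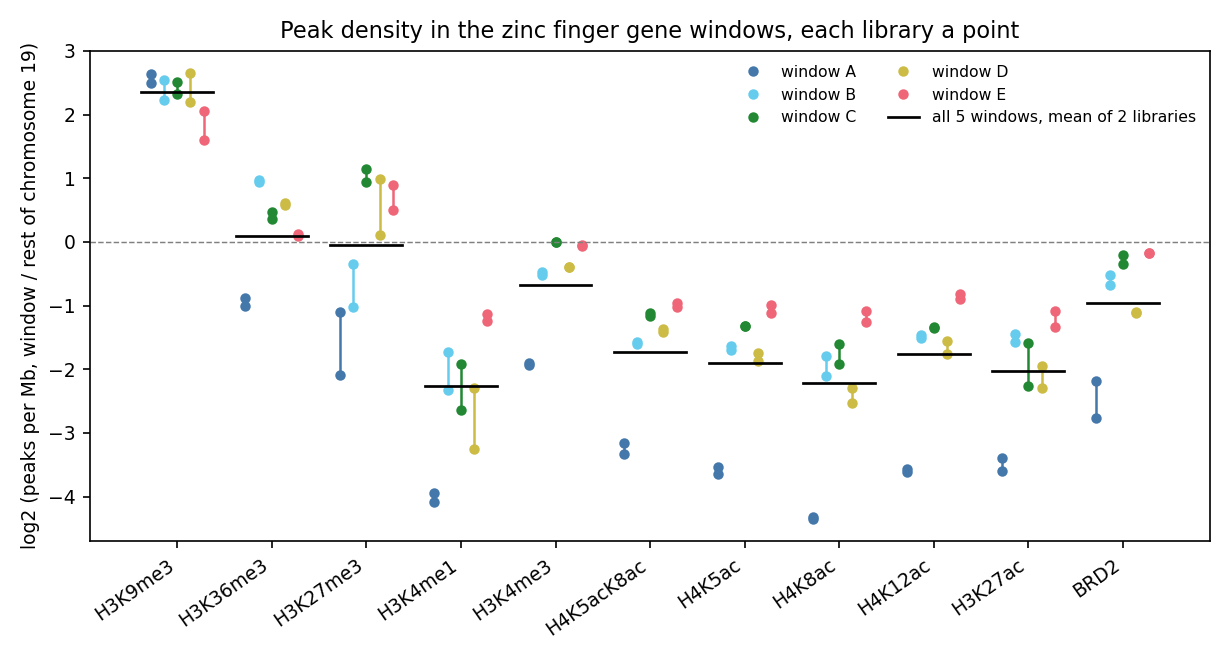
Density of peaks in each window and in all clusters against the rest of chromosome 19, as log2 ratios, for the 11 targets; points are single libraries of a window, the black line is the mean over all 5 windows, and 0 means equal density. H3K9me3 lies above 0 in all windows (mean ratios 3.59 to 5.95), the acetylation marks and H3K4me1 lie below it, and H3K36me3 falls below 0 in window A alone (0.519).

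H3K36me3, the mark of transcribed gene bodies, was about as dense in the clusters as in the rest when all windows were pooled. It had 113 and 111 peaks per Mb in the clusters and 105.2 and 104.6 in the rest, a ratio of 1.07 ± 0.00977 (SD, n = 2 libraries). Against the 21 other autosomes the log2 ratio was 1.11 in place of 0.10. The windows differed from this average. Window B had a mean ratio of 1.95, window D 1.51, window C 1.33 and window E 1.08, whereas window A had 0.519. In bases, H3K36me3 covered 7.10% and 6.65% of window A but 36.6% and 35.03% of window B and 35.3% of window C in both libraries. The rest stood at 17.9% and 17.5%, so window A lay below it and the other 4 windows above it in both libraries.

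Where H3K36me3 occurred in the clusters, it mostly sat on H3K9me3. Of the H3K36me3 regions found in both libraries, 634 of 809 in the clusters (78.4%, Wilson interval 75.4% to 81.1%) overlapped H3K9me3 in both of its libraries. In the rest of chromosome 19 it was 375 of 2827 (13.3%), and over all such regions of the genome 8.85%. By window the counts were 113 of 153 in A, 182 of 224 in B, 50 of 54 in C, 148 of 159 in D and 141 of 219 in E. Intervals cover counting error only and treat neighbouring regions as independent, which they are not.

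Seen from the H3K9me3 side, overlap separated the windows more clearly. Over the 4 combinations of libraries, 24.6% of H3K9me3 peaks in the clusters met H3K36me3, against 15.4% in the rest. The difference was 9.17 ± 0.184 percentage points (SD between the H3K9me3 libraries). That SD leaves out the spread between the H3K36me3 libraries. With only the first library of both marks the difference was 9.34, and with only the second 8.84. It was 4.14 among peaks with a −log10 q of at least 5 and 18.7 against the 21 other autosomes. In window A between 7.97% and 9.56% of H3K9me3 peaks met H3K36me3, below the rest, whose lowest combination was 14.3%. In window B it was 43.6% to 48.3%, in C 38.8% to 45.4%, in D 37.9% to 38.9% and in E 27.7% to 28.2%. Windows B and C overlapped in their ranges, as did C and D. H3K36me3 itself covered 35.8% of the bases of window B, 35.3% of C, 32.6% of D and 25.1% of E. It covered 17.7% of the rest and 6.88% of A. The shares stood in the order of this coverage, so they do not by themselves show a preference for H3K9me3.

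Bases that carried both marks gave another order, with window D first and window A above the rest. Averaged over the combinations of libraries, 23.4% of window B carried both marks, as did 23.4% of window C, 26.6% of window D and 15.7% of window E, against 3.60% of window A and 1.58% of the rest. H3K9me3 alone took 51.3% of window A and 45.1% of window D. Window A differed from D in how little H3K36me3 it held, at 6.88% of its bases against 32.6%. Window E kept the most sequence without either mark, 42.7%, close to the 41.8% of window A, and window D the least, 22.3%.

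**Figure D2:**
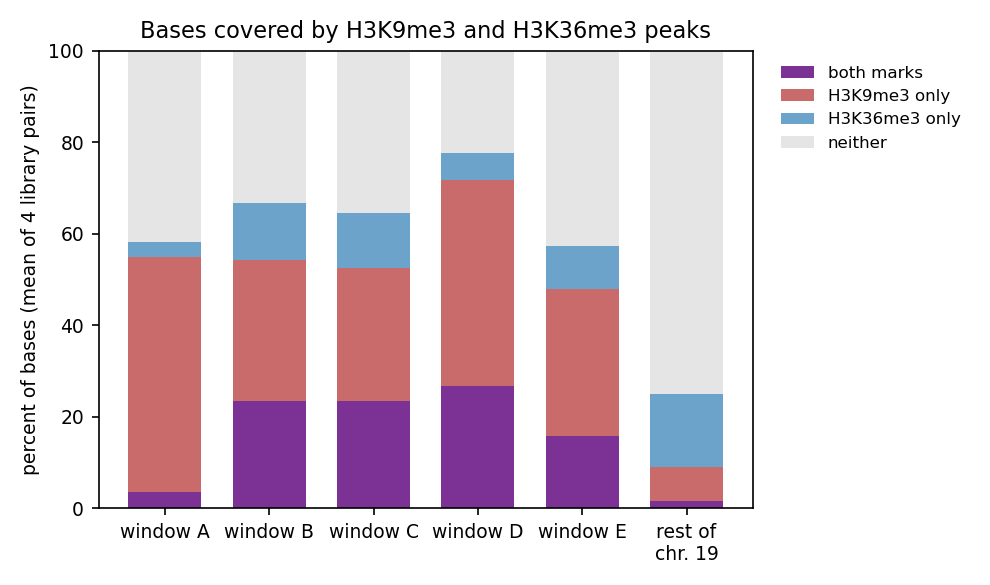
Share of bases (percent, means over the 4 combinations of libraries) under H3K9me3 alone, both H3K9me3 and H3K36me3, H3K36me3 alone or neither, for windows A to E and the rest of chromosome 19. The class with both marks takes 3.60% of window A, 26.6% of window D and 1.58% of the rest.

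H3K9me3 covers so much of the clusters that many overlaps need no preference. The share of H3K36me3 bases that lay in H3K9me3 was therefore set against the share of all bases that H3K9me3 covered. In the clusters these were 66.5% and 55.3%, a ratio of 1.21 (1.15 to 1.27 over the combinations). Window E had the highest ratio, 1.31, followed by C with 1.27, B with 1.21 and D with 1.14. The ratio has a lower ceiling where H3K9me3 covers more, and it covers 71.75% of window D and 47.93% of window E. The order of these windows is therefore not an order of preference. Window A had 0.956 (0.929 to 0.987), so there H3K36me3 lay in H3K9me3 slightly less than the coverage of the window. In the rest of the chromosome the ratio was 1.01 (0.933 to 1.08). By this measure the overlap of the marks in windows B to E was above their coverage, by far less than the raw shares of the clusters and the rest differ.

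Joining pieces up to 1 kb apart that were covered in all 4 H3K9me3 and H3K36me3 lists gave 494 regions with both marks in the clusters, or 41.2 per Mb, and 302 in the rest, or 6.88 per Mb. Their median length was 1909 bp in the clusters and 931 bp in the rest, and 118 in the clusters reached 5 kb. Window B held 137 of them, D 113, E 111, A 85 and C 48. In the genome there were 6412 such regions with 8557408 bp. The clusters held 7.70% of these regions and 20.96% of their bases, and 46 of the 100 longest.

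The longest of these regions within the clusters lay in window E, at chr19:58747583-58778880 (31298 bp). Its highest H3K9me3 peaks had fold enrichments of 11.6 and 12.4 in the 2 libraries, and its highest H3K36me3 peaks 23.7 and 23.3. The next, also in window E, was chr19:58695814-58726835 (31022 bp), with H3K9me3 at 13.9 and 13.6 and H3K36me3 at 24.2 and 27.5. This one also overlapped a strong H3K4me3 promoter peak by at least 1 bp, with fold enrichments of 107 and 110. How far that peak reached into the region was not measured.

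Window B followed with chr19:37235230-37262232 (27003 bp, with H3K9me3 at 11.6 and 12.9 and H3K36me3 at 22.4 and 19.7) and chr19:37023913-37048385 (24473 bp). The first of these also overlapped peaks of H3K4me3 (73.0 and 76.4) and H3K27ac (44.5 and 53.7) by at least 1 bp. In window C the longest were chr19:44332868-44355035 (22168 bp), which also overlapped H3K27ac peaks (2.91 and 6.91), and chr19:44980940-44992216 (11277 bp). In window D they were chr19:53569295-53590487 (21193 bp) and chr19:53941824-53959526 (17703 bp). Window A had the shortest leaders, chr19:19819255-19829137 (9883 bp) and chr19:19782958-19792432 (9475 bp), both near its start. The first of them had H3K9me3 at 9.84 and 13.1 and H3K36me3 at 12.2 and 17.4.

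Few of the regions with both marks carried anything else in both libraries, in the clusters or in the rest. BRD2 was found in 0 of 494 in the clusters and in 2 of 302 in the rest, and H4K8ac in 0 and 7. H3K4me3 was found in 3.24% and 1.66%, H3K4me1 in 3.64% and 5.30%, and H3K27me3 in 5.67% and 6.95%. Of the cluster regions with H3K4me3, 11 lay in window E, where they were 9.91% of 111.

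At the scale of 100 kb, H3K9me3 filled most of the clusters. The mean coverage of the 2 libraries was at least 50% in 87 of 120 bins of the clusters (72.5%) and in 21 of 438 bins of the rest (4.79%). The median bin had 60.4% in the clusters and 2.85% in the rest. In window D all 17 of 17 bins passed, in A 34 of 47, in B 15 of 19, in C 4 of 7 and in E 17 of 30. H3K36me3 covered under 1% in 40 of the 120 bins, of which 32 were among the 47 of window A, 7 in E and 1 in B. In the rest it was 127 of 438, so the pooled count is near that of the rest and window A is where such bins gather.

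Across the 120 bins of the clusters, coverage by the 2 marks was unrelated (Pearson r = 0.00235, Spearman rho = 0.0562). Within window A it was negative over 47 bins (r = -0.483, rho = -0.347). In the 438 bins of the rest it was r = -0.153 and rho = -0.398. Neighbouring bins share domains and libraries, so these are descriptions.

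The window edges did not always coincide with the edge of H3K9me3. Over 200 kb on either side, mean H3K9me3 coverage fell from 37.6% inside to 1.52% outside at the start of window A, from 54.5% to 4.33% at the end of B, and from 62.7% to 4.54% at the start of C. At the starts of windows B and E the inside was itself low, at 2.53% and 3.89%, so each window opens with sequence like its surroundings. At the end of window A coverage was higher outside (84.6%) than inside (50.4%), in a stretch that ends at the gap without peaks. The 21 rich bins of the rest included such stretches at 9.4 to 9.8 Mb (74.0% H3K9me3 and 31.5% H3K36me3) and 11.7 to 12.7 Mb (65.7% and 13.8%). High H3K9me3 with H3K36me3 was therefore not confined to the 5 windows.

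H3K4me3 peaks, which mark active promoters, were less dense in the clusters. They numbered 18.7 and 18.8 per Mb in the 2 libraries, against 30.0 and 30.2 in the rest, a ratio of 0.623 ± 0.00192 (SD, n = 2 libraries). Window A was lowest, with a mean ratio of 0.265. Windows B and D were at 0.708 and 0.762, and windows C and E, at 0.996 and 0.963, were near the level of the rest. Pooled over the clusters, individual peaks were no weaker: the median fold enrichment was 82.9 and 91.7 in the clusters and 69.9 and 77.7 in the rest. In window A it was below the rest, at 67.3 and 73.7. Chromosome 19 is itself rich in these peaks. Against the 21 other autosomes the direction turned, with a log2 ratio of 1.34 in place of -0.68.

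Many cluster promoters touched H3K9me3. Of 222 H3K4me3 regions found in both libraries, 96 (43.2%, interval 36.9% to 49.8%) overlapped H3K9me3 in both of its libraries, against 31 of 1238 (2.50%) in the rest and 2.78% of such regions in the genome. The counts were 21 of 36 in window A, 14 of 40 in B, 6 of 21 in C, 25 of 39 in D and 30 of 86 in E. Within 5 kb of H3K9me3 lay 181 of 222 (81.5%), against 257 of 1238 (20.8%) in the rest. The median distance, averaged over the 2 libraries, was 55.3 bp in the clusters and 22233 bp in the rest. H3K9me3 itself covers 55.3% of all bases in the clusters and 8.93% in the rest. Over single lists, 50.45% of H3K4me3 peaks in the clusters and 3.27% in the rest met it. Both shares were below that coverage, although 1 shared base was enough.

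The contact seldom held the H3K4me3 summit in all lists. In 15 of the 96 regions the summits of both H3K4me3 lists lay inside H3K9me3 in both of its lists. Of these 15, 9 lay in window A and 0 in window E. In the rest it was 10 of 31. The remaining regions may have a summit inside H3K9me3 in some of the lists. Among regions with H3K9me3, the median share under it was 22.3% in the clusters and 25.0% in the rest, but 57.6% in window A. When at least 50% of an H3K4me3 peak had to be covered, the difference between clusters and rest dropped to 9.85 percentage points, from 47.2 with 1 shared base. It was 15.1 among the 10000 strongest peaks of each list. Regions with H3K9me3 were narrower, with a median of 1604 bp against 1884 bp without, as in the rest (1575 and 1960 bp). Their median fold enrichment was 80.5 against 92.3 without over all clusters, and it was lower in windows A (52.9 against 91.7), B (76.8 against 93.7), C (82.5 against 97.0) and D (78.4 against 91.3). In window E it was higher, at 99.7 against 90.9.

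**Figure D3:**
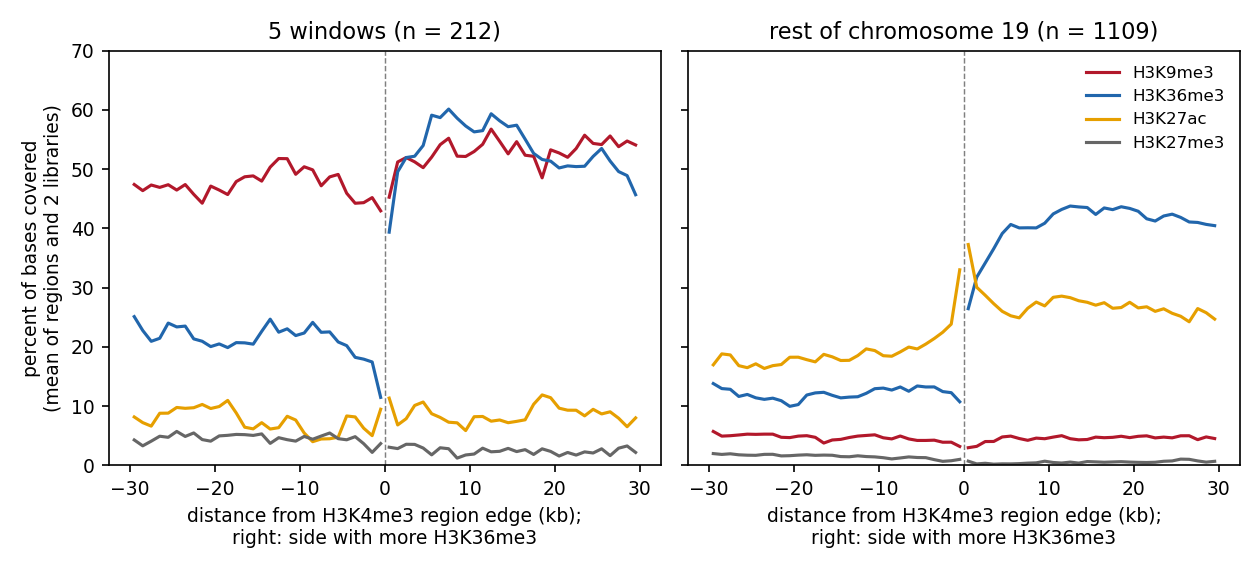
Bases covered by H3K9me3, H3K36me3, H3K27ac and H3K27me3 (percent, mean over regions and 2 libraries) by distance from the edge of H3K4me3 regions (kb, up to 30 kb), with the side richer in H3K36me3 to the right, for 212 regions of the clusters and 1109 of the rest. In the clusters the H3K9me3 curve is high on either side of the promoter and the H3K27ac curve low, and in the rest H3K9me3 is low and H3K27ac above it.

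Each H3K4me3 region was then turned so that the side with more H3K36me3 within 30 kb pointed the same way, which left 212 regions in the clusters. H3K36me3 itself chose the sides, at 53.9% and 52.8% of bases on one and 21.8% and 20.8% on the other. H3K9me3 covered 48.0% and 57.9% on the side rich in H3K36me3 in the 2 libraries, and 41.9% and 53.0% on the other. It was higher on the H3K36me3 side at 115 regions and lower at 80 in the first library, and at 112 and 81 in the second. In the rest the mean coverage of the sides was close, with 4.06% and 5.01% on the rich side and 4.14% and 5.21% on the other. By region the rest leaned the other way, with H3K9me3 higher on the H3K36me3 side at 251 regions and lower at 386 in the first library, and at 265 and 396 in the second. H3K27me3 was lower on the H3K36me3 side in the clusters, at 1.50% and 3.39% against 3.81% and 5.27%, and likewise in the rest, at 0.454% and 0.614% against 1.48% and 1.52%. H3K27ac covered 9.44% and 7.75% of the rich side in the clusters, against 30.9% and 23.4% in the rest.

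The 5 acetylation marks were all scarcer in the clusters, and to a like degree. H4K5acK8ac had 24.3 and 22.8 peaks per Mb in the clusters against 79.7 and 77.2 in the rest. H3K27ac had 37.2 and 28.8 against 165 and 107. H4K5ac had 32.2 and 31.5 against 125 and 114. H4K12ac and H4K8ac stood likewise apart, in every library, and the mean ratios of the 5 marks ran from 0.216 (H4K8ac) to 0.301 (H4K5acK8ac). On the log2 scale their mean was -1.93 ± 0.199 (SD, n = 5 marks), or 3.81-fold lower. Against the 21 other autosomes it was -0.43 ± 0.44. Window A had the lowest ratio for all 5 marks (0.0494 to 0.106) and window E the highest (0.433 to 0.552). In both libraries of every mark the clusters lay below the rest.

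Set against the methylation marks, the acetylation marks had the lower ratio by 1.82 on the log2 scale (-1.93 against -0.11 ± 1.67), with an exact two-sided permutation p of 0.0476 over 5 marks against 5. The call ended under 5 alternatives, with p from 0.0794 to 0.524: peaks with −log10 q of at least 5, the 10000 strongest peaks, the other autosomes as reference, covered bases in place of peak numbers, and leaving out H4K8ac. The methylation marks themselves pointed in opposite directions, from 2.36 for H3K9me3 to -2.27 for H3K4me1, so their mean describes no single mark. The units are marks of 1 cell line and the acetylation marks share many peaks, so this p does not establish a difference between the classes.

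Acetylation in the clusters was concentrated on promoters. Of H4K5acK8ac peaks, 88.5% met H3K4me3 in the clusters and 49.2% in the rest, as means over the combinations of libraries. For H4K5ac it was 83.5% and 40.8%, for H4K12ac 85.8% and 46.4%, for H4K8ac 77.6% and 32.5%, and for H3K27ac 57.5% and 23.6%. The lowest combination in the clusters exceeded the highest in the rest for each of the 5 marks. The median fold enrichment of acetylation peaks was higher in the clusters in both libraries of all 5 marks, by differing amounts. The median H4K5acK8ac fold enrichment was 12.1 and 12.6 in the clusters and 5.69 and 5.68 in the rest. H3K27ac had 5.14 and 11.8 against 3.70 and 3.67. H4K5ac had 5.21 and 5.13 against 3.63 and 3.77, H4K12ac 3.97 and 4.04 against 3.28 and 3.42, and H4K8ac 3.52 and 3.68 against 3.22 and 3.51.

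From the promoter side, acetylation was not missing. H4K5acK8ac lay on 209 of the 222 H3K4me3 regions of the clusters in both libraries (94.1%), on 94.4% in the rest and on 84.5% in the genome. Window A was lower, with 27 of 36 (75.0%). H3K4me1 differed more: 138 of 222 regions (62.2%) carried it, against 94.9% in the rest and 84.6% in the genome. Here windows diverged, from 12 of 36 (33.3%) in A and 17 of 39 in D to 73 of 86 (84.9%) in E. H3K36me3 reached 49 of 222 (22.1%), close to the 21.2% of the rest and above the 15.4% of the genome.

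H3K4me1 was the most depleted mark in the clusters. It had 25.8 and 37.4 peaks per Mb, against 134 and 167 in the rest, a ratio of 0.208 ± 0.0220 (SD, n = 2 libraries), or 4.81-fold lower. Window A was at 0.0618 and window E at 0.439. The ratios of H4K8ac (0.216) and H3K4me1 did not differ beyond their spread.

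BRD2, the acetyl-lysine reader, was scarcer in the clusters too, by more than H3K4me3 and by less than each acetylation mark. It had 24.1 and 22.1 peaks per Mb in the clusters, against 45.3 and 44.6 in the rest, a ratio of 0.513 ± 0.0261 (SD, n = 2 libraries). Window A stood at 0.184, D at 0.464, B at 0.661, C at 0.826 and E at 0.889. As for H3K4me3, the direction turned against the 21 other autosomes, with a log2 ratio of 0.36 in place of -0.96.

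All 150 BRD2 regions found in both libraries in the clusters (150 of 150) overlapped H3K4me3 in both libraries, against 815 of 906 in the rest (90.0%) and 84.5% in the genome. Only 11 of the 150 (7.33%) overlapped H3K9me3, against 16 of 906 (1.77%) in the rest and 2.25% in the genome. The single libraries differed here. In the first library 33.6% and 33.9% of cluster BRD2 peaks met H3K9me3, and 60.6% and 60.9% met H3K4me3. In the second, 12.1% and 15.8% met H3K9me3, and 92.1% and 92.5% met H3K4me3. The first list also held more weak peaks: 15.9% of its cluster peaks had a −log10 q of at least 5, against 49.4% in the second. The part of weak peaks in this gap was not tested.

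Of the 222 H3K4me3 regions of the clusters, 138 (62.2%, interval 55.6% to 68.3%) carried BRD2 in both libraries, against 690 of 1238 (55.7%) in the rest and 50.6% in the genome. Over single lists the difference was 9.21 ± 2.26 percentage points (SD between the BRD2 libraries). It was 3.23 among peaks with a −log10 q of at least 5. Its direction turned among the 10000 strongest peaks (-2.57) and when at least 50% of the peak had to be covered (-5.95).

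Whether an H3K4me3 region touched H3K9me3 made little difference to BRD2 over all clusters: 61 of 96 (63.5%) with H3K9me3 carried it and 77 of 126 (61.1%) without. In the rest it was 14 of 31 (45.2%) with and 676 of 1207 (56.0%) without. The windows went opposite ways. In window E it was 29 of 30 (96.7%) with and 28 of 56 (50.0%) without, while in window A it was 7 of 21 (33.3%) with and 10 of 15 (66.7%) without. In C it was 2 of 6 with and 11 of 15 without, in D 11 of 25 and 8 of 14, and in B 12 of 14 and 20 of 26. Regions of 1 window share their libraries and neighbours, and the difference between windows was not tested.

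**Figure D4:**
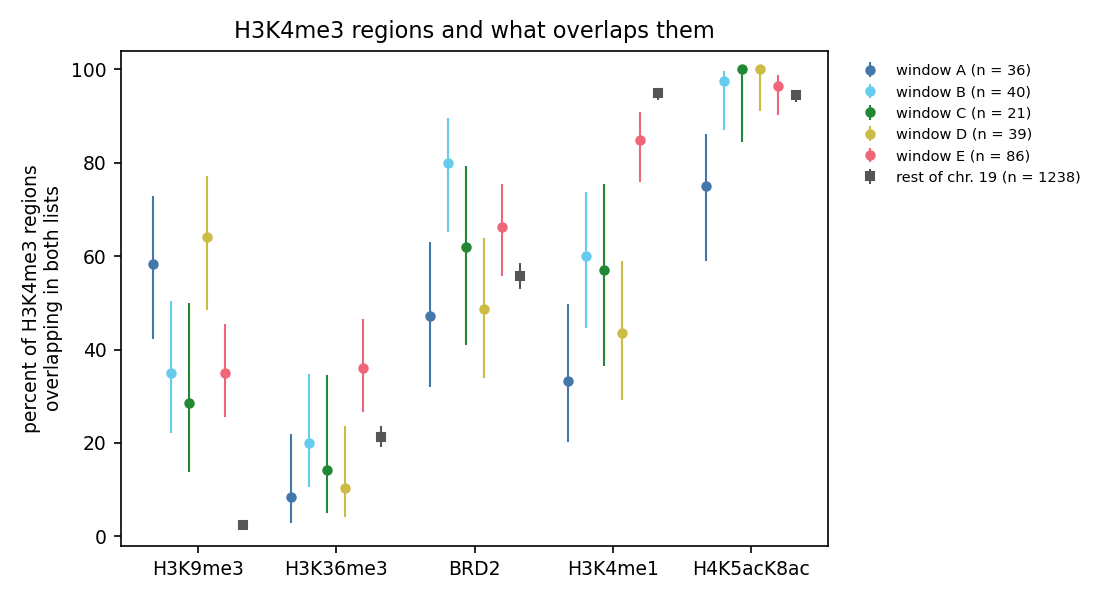
Share of H3K4me3 regions found in both libraries (percent, with 95% Wilson intervals) that overlap H3K9me3, H3K36me3, BRD2, H3K4me1 or H4K5acK8ac in both libraries, for windows A to E and the rest of chromosome 19. All 5 windows lie above the rest (2.50%) for H3K9me3 and below it (94.9%) for H3K4me1.

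The strongest promoter peak of each window, by the lower of its 2 fold enrichments, was chr19:19779166-19781191 in A (109 and 119), chr19:38209313-38211102 in B (106 and 114), chr19:44616178-44618706 in C (103 and 111), chr19:52772297-52774028 in D (105 and 117) and chr19:56145730-56148014 in E (110 and 119). These single strongest peaks were close in strength in all windows, although the median H3K4me3 peak was weakest in window A. At the one in window A, BRD2 had fold enrichments of 4.69 and 7.42 and H3K27ac 43.9 and 47.3, and H3K9me3 peaks of 4.63 and 2.76 touched it.

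The strongest BRD2 regions were other promoters. That of window B, chr19:37018888-37019981, had fold enrichments of 14.3 and 43.8. Window A had chr19:19773899-19775155 (11.2 and 23.3), E chr19:58897354-58898882 (9.38 and 22.4), D chr19:52693181-52694131 (9.01 and 12.03) and C chr19:44860368-44861338 (6.09 and 13.5). All 5 carried all 5 acetylation marks in both libraries, and none carried an H3K9me3 or H3K36me3 peak. That of window B lies just before chr19:37023913-37048385, the second longest region of that window with both marks.

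H3K27me3, the Polycomb mark, gave no stable direction. The first library had 48.7 peaks per Mb in the clusters against 61.7 in the rest (ratio 0.788), and the second 90.5 against 76.6 (ratio 1.18). The windows differed by more than this, from a mean ratio of 0.349 in A to 2.07 in C. In the clusters 87.4% of H3K27me3 peaks met H3K9me3 and in the rest 51.4%, where H3K9me3 covers 55.3% and 8.93% of all bases. These shares cannot be ranked against coverage: a peak counts with 1 shared base, and the coverage of the clusters leaves less room above it. In turn 9.18% of H3K9me3 peaks met H3K27me3 in the clusters and 32.9% in the rest.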

How the data were processed

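ChIP-seq peak lists of 22 libraries (11 targets, 2 libraries each) in NCI-H23 were analysed, grouped by sample title. For H3K9me3 library 2, title and description give different replicate numbers; the title's was used. Per the submitters' processing notes, BWA, MACS2 and build hg19 were used; versions, settings, control, pooling and the treatment of reads that map to several places are not given in the sources used here. The last point bears on these clusters, where genes resemble each other. In the deposited lists, fold enrichment is a ratio, significance is −log10 q, and the summit is an offset in bp. Depth per library is unknown from such lists.

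Peaks were assigned by summit. Densities, covered bases and overlaps (at least 1 bp) were computed with Python 3.11.15, numpy 2.4.6, pandas 2.3.3 and scipy 1.17.1, and plots with matplotlib 3.10.9. Pairs of targets used all 4 combinations of libraries. A region found in both libraries is a run of merged peaks that holds a peak of each list. Regions named per window are the 2 longest with both H3K9me3 and H3K36me3 in all 4 lists, the strongest H3K4me3 and the strongest BRD2. The windows and these rules were chosen with earlier results of these data known. The functions were tested on simulated data. No sequence of build hg19 was used here. Alternatives were a −log10 q of at least 5, the 10000 strongest peaks, windows narrowed by 100 kb, the 21 other autosomes, covered bases, 50% overlap, a replicate block, leaving out a replicate, and, chosen after seeing the data, leaving out H3K9me3-rich bins of the rest or H4K8ac.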

Additional observations from a re-analysis of the deposited data

How the results depend on the processing

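Alternatives gave 77 values for 9 results. Of these, 30 stayed within the spread between libraries or marks, 38 moved, 5 lost the call and 4 turned direction. The cause was not tested. The 30 include the density ratios of H3K9me3, H3K36me3, H3K4me3 and BRD2 with a replicate left out. The mean of 2 libraries always lies closer to either library than the SD between them. These ratios therefore had to stay within the spread, and they cannot tell how far a density depends on the library. Peak lists hold no read depth, so weak peaks cannot be weighed against it. Log2 density ratios of clusters against rest are given first.

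At a −log10 q limit of 5 it was 2.88 for H3K9me3, 0.083 for H3K36me3, -0.61 for H3K4me3, -0.68 for BRD2 and -1.42 for acetylation. Among the 10000 strongest peaks these were 2.62, 0.28, -0.31, -0.74 and -1.18. With windows narrowed by 100 kb, H3K36me3 was 0.065, H3K4me3 -0.82, BRD2 -1.13 and acetylation -2.22. Against 21 other autosomes H3K9me3 was 2.73, H3K36me3 1.11 and acetylation -0.43, while H3K4me3 (1.34) and BRD2 (0.36) turned direction. By covered bases H3K9me3 was 2.63, H3K36me3 0.27 and H3K4me3 -0.83. Without the 21 H3K9me3-rich bins of the rest, chosen after seeing the data, they were 2.67, 0.080 and -0.72.

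The difference of acetylation from methylation marks was -1.16 (exact permutation p = 0.254) with a −log10 q of at least 5, -0.75 (p = 0.524) among the strongest peaks, -1.20 (p = 0.127) against other autosomes, -1.57 (p = 0.0873) by covered bases and -1.75 (p = 0.0794) without H4K8ac, a choice made after seeing the data. Over all alternatives p ran from 0.0476 to 0.524.

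The differences in overlap are in percentage points. H3K9me3 with H3K36me3 was 4.14 at the q limit, 6.39 among the strongest peaks, 18.7 against autosomes, 8.05 at 50% overlap and 9.51 without rich bins. H3K4me3 with H3K9me3 was 34.7, 15.1 and, with narrowed windows, 53.8; it was 9.85 at 50% overlap and 48.5 without rich bins. H3K4me3 with BRD2 was 3.23 at the q limit, 13.9 against autosomes, -2.57 among the strongest peaks and -5.95 at 50% overlap. Leaving out a replicate gave 8.84 to 9.34 for H3K9me3 with H3K36me3 and 43.2 to 50.7 for H3K4me3 with H3K9me3.

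With a replicate block (same-numbered libraries only) the 3 overlaps were 9.09, 46.9 and 9.11, each within its spread. The labels tie same-numbered libraries by a number only. Over 592 bins their deviations correlated by -0.31 to 0.48 across 55 pairs of targets, above 0.1 in 5. These correlations cannot settle whether same-numbered libraries share a culture or batch.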
